A study of Homo sapiens with 66 samples.

Results

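The 5 genes described here belong to the p53 pathway. They are CDKN1A, DDB2, AEN, MDM2 and PPM1D, taken as the rows of the count table whose Ensembl identifiers carry these symbols in GENCODE release 29. All 5 were found, among 13331 genes of the table, and all 5 passed the filter on low counts that left 12515 genes to test. All are protein-coding genes on the plus strand of hg38, with CDKN1A (ENSG00000124762) at chr6:36676460-36687339, DDB2 (ENSG00000134574) at chr11:47214465-47239240, AEN (ENSG00000181026) at chr15:88621296-88632282, MDM2 (ENSG00000135679) at chr12:68808176-68850686 and PPM1D (ENSG00000170836) at chr17:60600183-60666280. The cells were KBM7, a near-haploid human line from chronic myeloid leukaemia. In 9 engineered lines a degradation tag (dTAG) was carried by CDK9 or by a Mediator subunit, which was MED1, MED6, MED10 or MED12 in 4 lines and MED14, MED26, MED28 or MED31 in the others. Each line was given 500 nM dTAG7, which recruits a ubiquitin ligase to the tag, or DMSO. Wild-type cells were given 500 nM dTAG7, 100 nM dBET6, 250 nM THAL-SNS-032 or DMSO. dBET6 is a degrader of BET bromodomain proteins, and THAL-SNS-032 is one of CDK9. All treatments lasted 6 h, and each of the 22 groups had 3 libraries. The 3 wild-type treatments share 1 set of DMSO libraries. Genotypes are labelled only by the tagged protein, so whether a line is 1 clone is not given in the sources used here. Cells were plated as triplicate wells per the labels, so a p-value here reflects the spread of such wells, which may be technical. dTAG7 acts on the protein, so RNA of the tagged genes does not check the labels.

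p53 is a transcription factor that is held low by ubiquitination and accumulates after DNA damage and other stress. CDKN1A encodes p21, which binds cyclin-dependent kinases and stops the cell cycle. DDB2 is a subunit of a damage sensor that finds UV lesions for nucleotide excision repair, and AEN is a nuclease that promotes apoptosis. MDM2 and PPM1D act back on the pathway: MDM2 is the ubiquitin ligase of p53, and PPM1D is a phosphatase that removes activating phosphates from p53 and from the damage kinase ATM. All 5 are known targets of p53, and their transcripts are described here in cells from which Mediator subunits, CDK9 or BET proteins are removed. Whether p53 was active in these cells was not tested. Mediator links transcription factors to RNA polymerase II, CDK9 releases paused polymerase, and BET proteins bind acetylated chromatin.

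Because the results contrast genes that share an activator, their promoters are shown first, as RefSeq windows of 250 bases before to 50 after an annotated start site on build GRCh38.p14, all on the plus strand. Of the 9 windows of the 5 genes, the one with the best match to the p53 response element was taken for each gene, or the first where none matched. The match was a pair of half-sites of 10 bases, each with its central C and G fixed, at most 13 bases apart and with at most 2 mismatches in all, searched on both strands. The windows are CDKN1A at chr6:36678464-36678763, DDB2 at chr11:47214724-47215023, AEN at chr15:88621090-88621389, MDM2 at chr12:68808767-68809066 and PPM1D at chr17:60599943-60600242. Capitals mark the best p53 match, an E-box (CACGTG) in AEN and a cyclic AMP response element (TGACGTCA) in PPM1D.
CDKN1A: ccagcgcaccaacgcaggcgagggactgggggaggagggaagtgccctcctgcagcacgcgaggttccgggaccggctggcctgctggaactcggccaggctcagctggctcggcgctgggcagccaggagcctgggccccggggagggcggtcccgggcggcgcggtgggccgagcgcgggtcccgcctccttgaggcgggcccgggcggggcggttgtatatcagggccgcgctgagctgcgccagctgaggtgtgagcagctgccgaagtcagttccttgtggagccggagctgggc
DDB2: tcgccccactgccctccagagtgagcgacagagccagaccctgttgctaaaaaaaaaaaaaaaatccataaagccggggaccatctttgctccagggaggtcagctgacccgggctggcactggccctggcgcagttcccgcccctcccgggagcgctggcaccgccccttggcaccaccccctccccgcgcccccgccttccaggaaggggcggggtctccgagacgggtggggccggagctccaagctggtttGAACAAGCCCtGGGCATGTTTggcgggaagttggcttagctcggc
AEN: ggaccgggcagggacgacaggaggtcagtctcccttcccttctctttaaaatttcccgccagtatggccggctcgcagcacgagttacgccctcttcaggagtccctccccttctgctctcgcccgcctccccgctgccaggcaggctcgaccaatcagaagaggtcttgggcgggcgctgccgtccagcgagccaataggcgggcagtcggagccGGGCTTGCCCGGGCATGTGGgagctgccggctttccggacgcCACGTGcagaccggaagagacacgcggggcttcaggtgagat
MDM2: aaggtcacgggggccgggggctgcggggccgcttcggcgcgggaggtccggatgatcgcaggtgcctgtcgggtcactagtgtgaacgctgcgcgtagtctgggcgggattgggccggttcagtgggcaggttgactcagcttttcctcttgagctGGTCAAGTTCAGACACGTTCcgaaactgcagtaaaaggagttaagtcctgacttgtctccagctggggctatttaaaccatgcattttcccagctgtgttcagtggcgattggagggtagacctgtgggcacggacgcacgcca
PPM1D: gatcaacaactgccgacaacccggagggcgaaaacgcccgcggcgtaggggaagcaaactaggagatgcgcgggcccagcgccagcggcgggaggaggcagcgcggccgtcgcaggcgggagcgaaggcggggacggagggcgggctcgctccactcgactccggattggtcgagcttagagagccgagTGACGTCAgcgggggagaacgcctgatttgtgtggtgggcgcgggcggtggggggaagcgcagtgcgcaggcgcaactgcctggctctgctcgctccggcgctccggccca

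DDB2, AEN and MDM2 held a p53 match. The match of DDB2, at chr11:47214979-47214999, began 5 bases after the start site and had 0 mismatches with a spacer of 1 base, and it overlapped 2 further matches. That of AEN, at chr15:88621306-88621325, began 34 bases before the start and had 2 mismatches and no spacer. That of MDM2, at chr12:68808923-68808942, began 94 bases before the start, in the windows of the gene's downstream start sites, and also had 2 mismatches. CDKN1A and PPM1D held no match in these windows, which says nothing of other positions. Of all 35116 windows in the RefSeq table, 2.93% held a p53 match, 7.26% the E-box and 1.85% the cyclic AMP response element. Among 29 genes of a list of known p53 targets that had windows, 5 had a match (AEN, DDB2, FAS, FDXR and MDM2). Counted by window, as in the shares of all windows, the list had a match in 6 of 44 (13.6%), those of AEN, DDB2 and MDM2 among them. The other motifs were the CCAAT box (CCAAT), found in 34.6% of all windows and here in AEN, MDM2 and PPM1D, and the GC box (GGGCGG), found in 45% and in all 5 of these windows. TATAAA was in none of the 5 and in 11.5% of all windows.

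**Figure D1:**
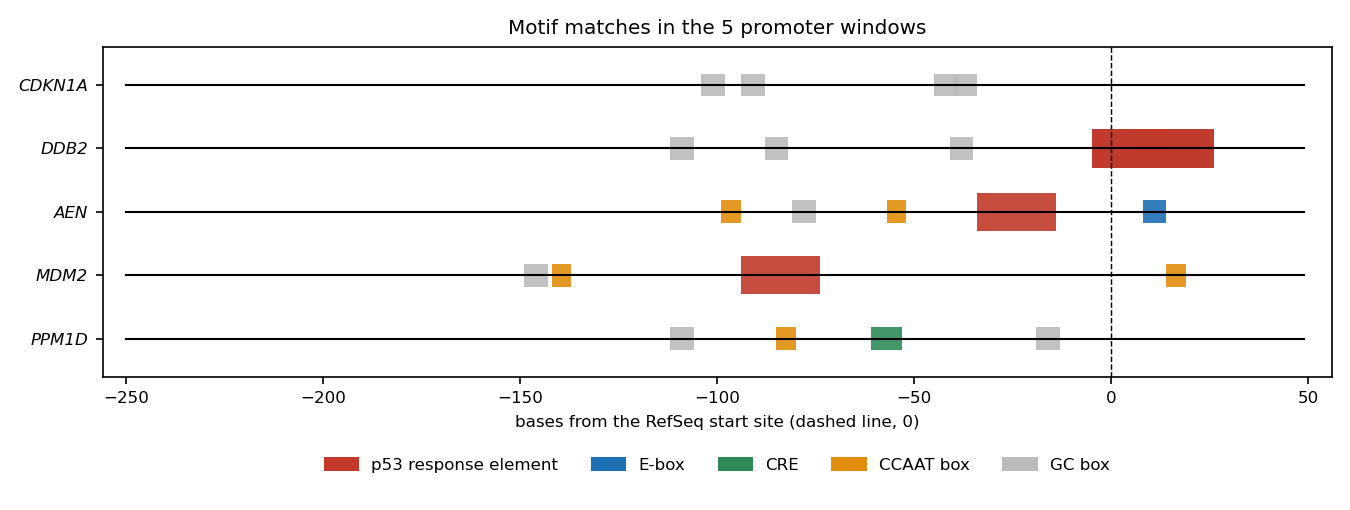
Motif matches along the promoter window of each gene, in bases from the RefSeq start site, with p53 response elements in red, E-box in blue, cyclic AMP response element (CRE) in green, CCAAT boxes in orange and GC boxes in grey. The red blocks stand in DDB2, AEN and MDM2, and those of DDB2 are 3 overlapping matches.

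Endogenous counts per library ran from 439261 to 4337368 (median 3016290.5), and spike-in RNA added in equal amount to each lysate gave 10950 to 72684 counts. Levels are given as CPM, counts scaled to a common library size, with library sizes set by the spike-ins, so that values are relative to an average wild-type DMSO library and a general loss of RNA stays visible (the spike-in scale). On this scale fewer cells in a well and less RNA per cell cannot be told apart. The endogenous share relative to spike-ins was 11.3% of DMSO with dBET6, 17.6% with THAL-SNS-032, 19.2% with dTAG7 in the CDK9 line and 63.2% in the MED14 line, and between 82.4% and 106% elsewhere. A second scale, TMM, sets the bulk of genes to no change and so gives a gene relative to the others. All 10 marker genes of the labelled cell type had counts, summing to 1141 to 1318 CPM in wild-type DMSO libraries. Of T cell markers 2 of 4 (12.8 to 14.7 CPM) and of B cell markers 4 of 4 (11 to 17.0 CPM) had counts, and of the 4 epithelial and 4 fibroblast markers 0 had a row. Replicate A of MED6-dTAG cells with dTAG7 and replicate B of MED12-dTAG cells with DMSO stood apart from their replicates, with log2 ratios of endogenous to spike-in counts of 6.52 beside 6.82 and 6.82, and of 6.71 beside 7.03 and 6.97. The 5 genes were well sampled in the 30 DMSO libraries, with medians of 45 counts for CDKN1A, 110.5 for DDB2, 577 for AEN, 182 for MDM2 and 51.5 for PPM1D.

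**Figure D2:**
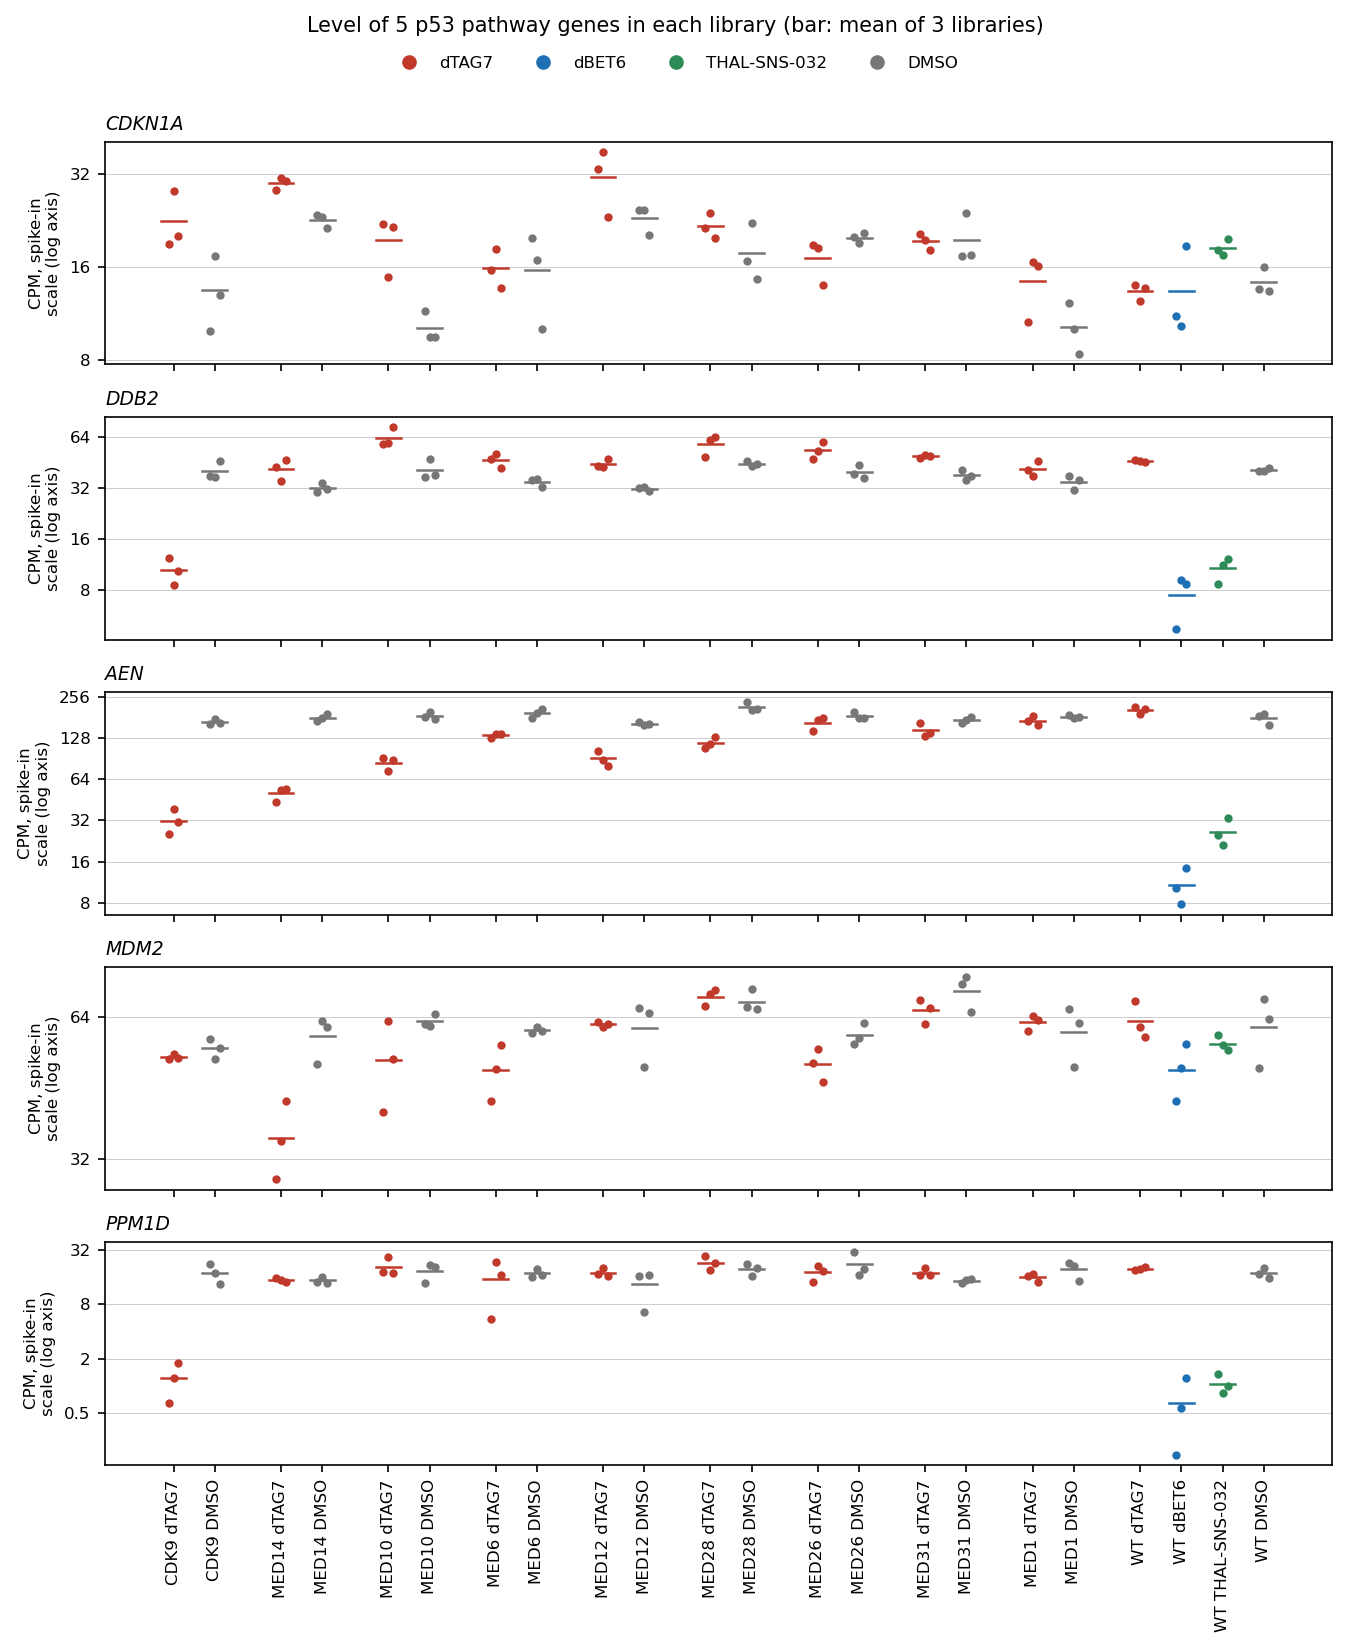
Level of each gene in every library, in CPM on the spike-in scale (log axis), with the treated group left of its DMSO group and a bar at the mean of 3 libraries. In the 3 groups without CDK9 or BET proteins CDKN1A and MDM2 lie within the range of other groups, DDB2 and AEN lie below their DMSO groups, and PPM1D lies at 0.174 to 1.81 CPM.

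CDKN1A was called higher in 2 of the 12 comparisons on the spike-in scale and lower in none. Calls throughout are edgeR quasi-likelihood tests with Benjamini-Hochberg adjusted p under 0.05 over all tested genes. How many of all genes had treated and DMSO libraries without overlap was not counted. Overlap is therefore given only to describe the libraries, not as support for a change. In CDK9-dTAG cells it measured 19.1, 28.3 and 20.2 CPM with dTAG7 and 9.96, 17.4 and 13.0 CPM with DMSO. All 3 treated libraries were above all 3 DMSO libraries. The log2 fold change was 0.65 ± 0.22 (SE, adjusted p = 0.00404), in a comparison in which 0.224% of genes were called higher and 95.3% lower. The median gene there had a log2 fold change of -2.93, and that of CDKN1A was number 75 from the top of 12515.

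With THAL-SNS-032, which removes the same kinase from wild-type cells, CDKN1A stood at 18.3, 17.5 and 19.8 CPM, against 13.6, 16.0 and 13.4 CPM with DMSO. The log2 fold change of 0.37 ± 0.21 missed the threshold (adjusted p = 0.0794). With dBET6 it stood at 11.1, 10.3 and 18.7 CPM, so the treated libraries fell on both sides of DMSO (log2 fold change -0.11 ± 0.21, adjusted p = 0.605). The shares of genes called higher and lower were 0.256% and 96.2% with THAL-SNS-032 and 0.423% and 97.1% with dBET6. CDKN1A was number 74 and number 125 from the top. Set directly against each other at their doses of 100 nM and 250 nM, dBET6 left less CDKN1A than THAL-SNS-032, by a log2 difference of -0.49 ± 0.19 (adjusted p = 0.0278), in a contrast that called 53.8% of genes, and TMM turned this to 0.26 (adjusted p = 0.469). The 2 groups of libraries overlapped.

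Relative to the other genes (TMM), CDKN1A rose in all 3 of these comparisons. The log2 fold changes were 3.47 ± 0.20 in CDK9-dTAG cells, 3.45 ± 0.20 with dBET6 and 3.18 ± 0.19 with THAL-SNS-032, or 11.1-fold, 10.9-fold and 9.08-fold. The shares of genes called higher on this scale were 21.1%, 18.2% and 14.1%. Those called lower were 27%, 23.2% and 16%.

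Among the Mediator lines CDKN1A rose in MED10-dTAG cells. It measured 22.1, 14.9 and 21.7 CPM with dTAG7 and 11.56, 9.51 and 9.47 CPM with DMSO, with no overlap. The log2 fold change was 0.98 ± 0.23 (adjusted p = 0.00103), a 1.98-fold rise where 2.71% of genes were called higher and 19% lower. It was also larger than in wild-type cells given dTAG7, by 1.07 ± 0.33 (adjusted p = 0.0183), in a contrast that called 14.7% of genes. On the TMM scale the rise was 1.196 ± 0.22 (adjusted p = 4.91e-05), where 8.06% were called higher and 10% lower.

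In MED14-dTAG cells CDKN1A measured 28.6, 31.1 and 30.5 CPM with dTAG7, against 23.7, 23.3 and 21.4 CPM with DMSO. The log2 fold change of 0.39 ± 0.19 was not called (adjusted p = 0.0612). This line lost RNA as a whole: 1.7% of genes were called higher and 63.3% lower, with a median gene at -0.69. Relative to the other genes the change was 1.07 ± 0.17 (adjusted p = 1.34e-06), where 13.4% were called higher and 16.6% lower. The values of the other 6 Mediator lines ran from -0.20 ± 0.21 in MED26-dTAG cells to 0.46 ± 0.24 in MED1-dTAG cells, and none was called on either scale. Wild-type cells given dTAG7 stood at 14.1, 12.5 and 13.8 CPM, overlapping the DMSO libraries (-0.08 ± 0.23, adjusted p = 0.992).

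The lines already differed in CDKN1A before dTAG7. With DMSO it averaged 23.2 ± 2.4 CPM in MED12-dTAG cells and 22.8 ± 1.2 CPM in MED14-dTAG cells, against 14.3 ± 1.4 CPM in wild-type cells (SD, n = 3 each). The log2 differences were 0.71 ± 0.21 (edgeR, adjusted p = 0.0178) and 0.68 ± 0.21 (adjusted p = 0.0244), with 10.5% and 10.4% of genes called between those lines and wild type. At the other end stood the MED10 and MED1 lines with 10.2 ± 1.2 and 10.2 ± 2.0 CPM in DMSO. The mean of MED10-dTAG cells was 19.6 ± 4.0 CPM with dTAG7, below the DMSO means of the MED12 and MED14 lines, although its libraries overlapped theirs. Ordered by mean, 20 of the 21 neighbouring pairs of groups overlapped, and the exception was the step from MED12-dTAG cells with DMSO to MED14-dTAG cells with dTAG7.

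DDB2, the damage sensor, changed in opposite directions with CDK9 or BET loss and with Mediator loss. On the spike-in scale it fell in 3 comparisons and rose in 4. In CDK9-dTAG cells it measured 12.4, 8.62 and 10.3 CPM with dTAG7 and 37.7, 37.1 and 46.5 CPM with DMSO. With THAL-SNS-032 it measured 8.69, 11.2 and 12.3 CPM and with dBET6 4.68, 9.18 and 8.64 CPM, against 40.3, 40.6 and 42.2 CPM with DMSO. Every treated library was below every DMSO library. The log2 fold changes were -1.90 ± 0.16 in CDK9-dTAG cells, -1.93 ± 0.16 with THAL-SNS-032 and -2.44 ± 0.16 with dBET6 (adjusted p at most 6.56e-17), where the median gene stood at -2.93, -2.86 and -3.67. DDB2 thus fell to 26.8%, 26.2% and 18.4% of DMSO, and 88.6%, 91.3% and 90.6% of tested genes had a lower log2 fold change. On the TMM scale the same data read as rises of 0.95 ± 0.18, 0.89 ± 0.17 and 1.14 ± 0.18 (adjusted p at most 4.29e-05).

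In 4 of the 8 Mediator lines DDB2 rose. These were the MED10-dTAG (0.64 ± 0.14, adjusted p = 0.000343), MED12-dTAG (0.49 ± 0.14, adjusted p = 0.0291), MED6-dTAG (0.43 ± 0.14, adjusted p = 0.0273) and MED14-dTAG lines (0.39 ± 0.14, adjusted p = 0.0129). MED10-dTAG cells had 58.1, 59.2 and 73.2 CPM with dTAG7 and 37.0, 47.5 and 38.2 CPM with DMSO. MED14-dTAG cells had 42.5, 35.4 and 46.7 CPM with dTAG7 and 30.4, 34.4 and 31.5 CPM with DMSO. MED6-dTAG cells had 47.6, 51.0 and 41.8 CPM with dTAG7 against 35.95, 36.2 and 32.6 CPM with DMSO, and MED12-dTAG cells 43.3, 42.4 and 47.6 CPM against 32.2, 32.3 and 30.8 CPM. In each of these lines all treated libraries were above all DMSO libraries. The shares of genes called higher were 0.775% in MED6-dTAG and 1.57% in MED12-dTAG cells, with 18.4% and 3.4% called lower. The calls in the MED6 and MED12 lines were fragile: each was lost when any of 5 of the 6 libraries was left out (adjusted p up to 0.122 and 0.154). That in the MED14 line was lost without replicate C of dTAG7 (0.30, adjusted p = 0.0955).

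The 4 lines without a call had log2 fold changes from 0.26 ± 0.14 in MED1-dTAG cells to 0.42 ± 0.14 in MED26-dTAG cells. The dTAG7 effect on DDB2 was not called as different among the 8 Mediator lines (F test with 7 degrees of freedom, adjusted p = 0.795, 46.2% of genes called). Nor was it called as different from wild-type cells in any Mediator line. Wild-type cells given dTAG7 measured 46.9, 46.1 and 45.5 CPM, all above the 3 DMSO libraries, with a log2 fold change of 0.17 ± 0.14 (adjusted p = 0.992). Under TMM the rise was also called in MED26-dTAG cells (0.56 ± 0.14, adjusted p = 0.0195), and the shares of genes called higher were 2.89% in MED6-dTAG, 3.06% in MED12-dTAG and 0.97% in MED26-dTAG cells. On that scale the F test called DDB2 (adjusted p = 0.0343, 12.4% of genes called). By mean level the 3 groups without CDK9 or BET proteins, at 7.503 to 10.7 CPM, lay clear below all others, which ran without a gap from 31.8 to 63.5 CPM.

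AEN, the apoptosis nuclease, fell in 5 of the 8 Mediator lines as well as with CDK9 or BET loss. It was called lower in 8 of 12 comparisons on the spike-in scale and higher in none. In MED14-dTAG cells it measured 43.9, 53.6 and 54.4 CPM with dTAG7, against 171, 182 and 192 CPM with DMSO. In MED10-dTAG cells it measured 91.4, 73.7 and 89.0 CPM, against 184, 200.4 and 178 CPM. MED12-dTAG cells had 104, 88.8 and 80.3 CPM against 168, 161 and 163 CPM, and MED28-dTAG cells 109, 117 and 131 CPM against 234, 205 and 208 CPM. In none of these 4 lines did treated and DMSO libraries overlap.

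The log2 fold changes of AEN were -1.85 ± 0.13 in MED14-dTAG, -1.14 ± 0.13 in MED10-dTAG, -0.86 ± 0.13 in MED12-dTAG, -0.86 ± 0.12 in MED28-dTAG and -0.55 ± 0.12 in MED6-dTAG cells (edgeR, adjusted p at most 0.00129). In MED28-dTAG cells 4.07% of genes were called lower. The transcript was left at 27.7% of DMSO in the MED14 line and at 45.5% in the MED10 line. In the MED12 and MED28 lines, where the median gene was at 0.06 and -0.04, AEN was number 257 and number 284 from the bottom of 12515 genes. In MED26-dTAG (-0.17 ± 0.12), MED31-dTAG (-0.25 ± 0.12) and MED1-dTAG cells (-0.09 ± 0.12) it was not called.

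The effect on AEN differed among the 8 Mediator lines (F test, adjusted p = 8.35e-12, 46.2% of genes called). It was also unlike the effect in wild-type cells, where dTAG7 gave 217, 193 and 209.8 CPM and a log2 fold change of 0.20 ± 0.12. The differences were -2.05 ± 0.18 for MED14-dTAG, -1.34 ± 0.18 for MED10-dTAG, -1.06 ± 0.18 for MED12-dTAG, -1.05 ± 0.17 for MED28-dTAG and -0.75 ± 0.17 for MED6-dTAG cells (adjusted p at most 0.00406). The shares of genes called in these contrasts were 57.7%, 14.7%, 1.65%, 1.88% and 11.1%. Under TMM the falls in the MED14 (-1.17 ± 0.11), MED10 (-0.93 ± 0.11), MED12 (-0.91 ± 0.11) and MED28 lines (-0.81 ± 0.11) were called and that in the MED6 line was not (-0.27 ± 0.11, adjusted p = 0.105). On that scale 5.7% of genes were called lower in MED12-dTAG and 4.34% in MED28-dTAG cells.

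AEN fell with CDK9 or BET loss, where most transcripts fell. It measured 25.3, 38.6 and 31.0 CPM with dTAG7 in CDK9-dTAG cells, against 162, 177 and 166 CPM with DMSO. In wild-type cells it measured 10.2, 7.77 and 14.3 CPM with dBET6 and 24.9, 21.1 and 33.4 CPM with THAL-SNS-032, against 186, 194 and 161 CPM with DMSO. The log2 fold changes were -2.46 ± 0.14, -4.09 ± 0.15 and -2.79 ± 0.14, beside median genes at -2.93, -3.67 and -2.86, and left 18.1%, 5.87% and 14.5% of DMSO. Relative to the other genes AEN rose slightly in CDK9-dTAG cells (0.35 ± 0.12, adjusted p = 0.0142), fell with dBET6 (-0.52 ± 0.14, adjusted p = 0.0017) and stood at 0.01 ± 0.12 with THAL-SNS-032. dBET6 left less AEN than THAL-SNS-032, by -1.30 ± 0.16 (adjusted p = 2.19e-09), and the 2 groups of libraries did not overlap. That contrast called 53.8% of genes, and its median gene stood at -0.82, so much of this difference was shared by the bulk of genes. In the order of group means, from dBET6 through THAL-SNS-032, CDK9-dTAG, MED14-dTAG, MED10-dTAG, MED12-dTAG and MED28-dTAG cells upwards, 4 steps had no overlap, and they followed dBET6 and the degrader groups of the CDK9, MED14 and MED12 lines.

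**Figure D3:**
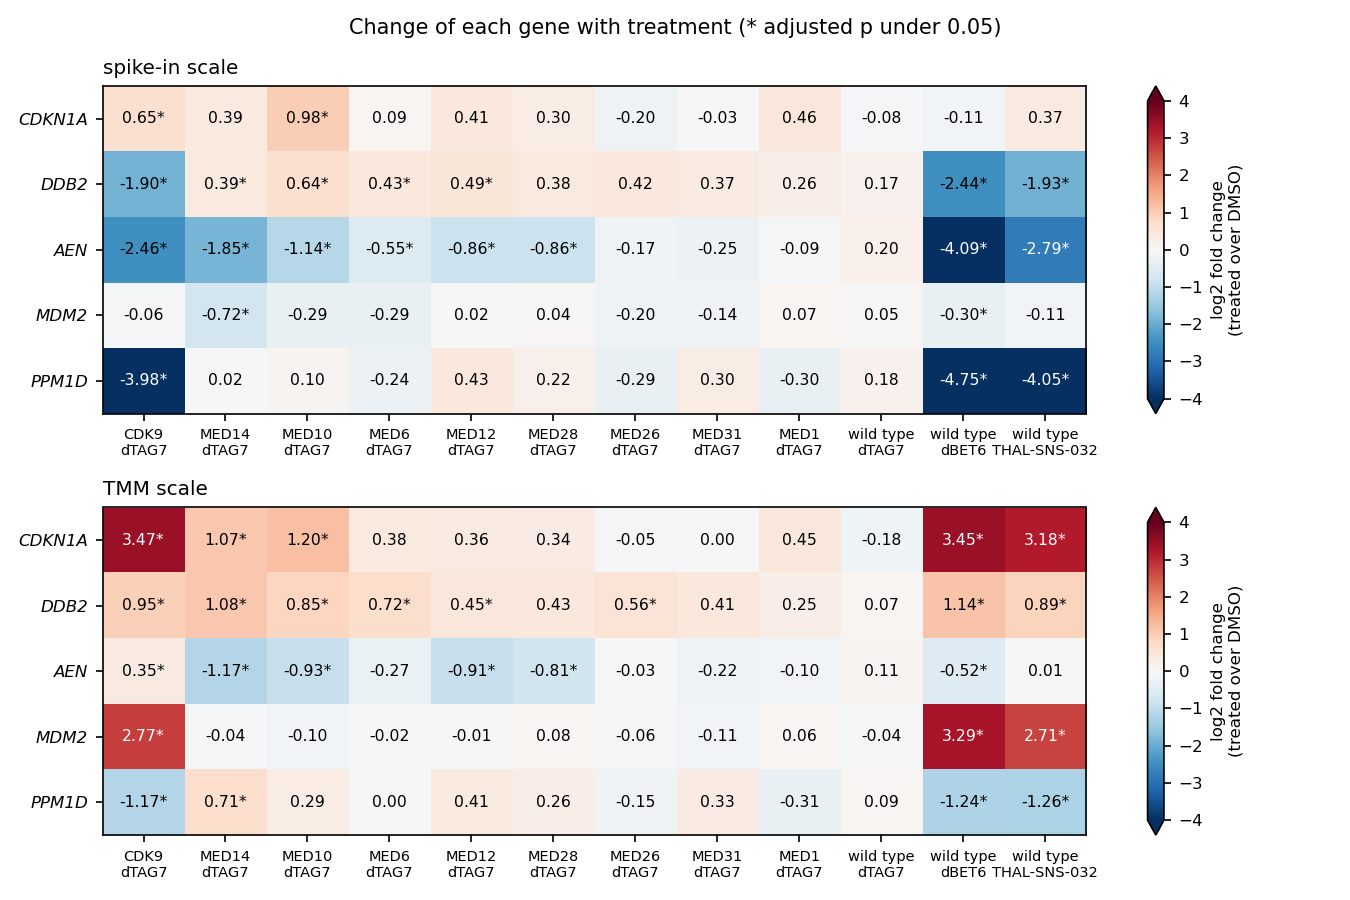
Log2 fold change of each gene, treated over DMSO, in 12 comparisons on the spike-in scale (top) and relative to other genes on the TMM scale (bottom), with calls at adjusted p under 0.05 starred and colours ending at 4 in either direction. AEN is starred lower in 8 spike-in comparisons, while in the 3 comparisons of CDK9 or BET loss CDKN1A and MDM2 lie between -0.30 and 0.65 on the spike-in scale and between 2.71 and 3.47 on the TMM scale.

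MDM2, the ubiquitin ligase of p53, stood near its DMSO level where most transcripts were lost. In CDK9-dTAG cells it measured 52.1, 53.4 and 52.5 CPM with dTAG7 and 57.6, 52.1 and 55.1 CPM with DMSO. Treated and DMSO libraries overlapped, and the log2 fold change was -0.06 ± 0.13 (adjusted p = 0.667, 95% interval -0.33 to 0.21). With THAL-SNS-032 the libraries stood at 58.6, 55.8 and 54.4 CPM, against 49.9, 70.0 and 63.3 CPM with DMSO (-0.11 ± 0.13, adjusted p = 0.395). With dBET6 they stood at 42.5, 49.9 and 56.3 CPM and the fall of -0.30 ± 0.13 was called (adjusted p = 0.0247), although the groups overlapped. That call was lost without any of 3 libraries, replicate A of dBET6 or replicates B or C of DMSO (adjusted p up to 0.174). MDM2 was number 142, 132 and 140 from the top in CDK9-dTAG cells, with THAL-SNS-032 and with dBET6. On the TMM scale it rose by 2.77 ± 0.12, 2.71 ± 0.12 and 3.29 ± 0.12 on the log2 scale (adjusted p at most 3.91e-28).

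The other called fall of MDM2 was in MED14-dTAG cells, with 28.9, 34.9 and 42.6 CPM with dTAG7 against 51.0, 63.0 and 61.1 CPM with DMSO. The log2 fold change was -0.72 ± 0.13 (adjusted p = 5.09e-06) and was unlike the change in wild-type cells by -0.78 ± 0.19 (adjusted p = 0.000397). That contrast with wild type called 57.7% of genes, and its median gene stood at -0.79. The median gene of MED14-dTAG cells against their own DMSO stood at -0.69. Under TMM the log2 fold change of MDM2 was -0.04 ± 0.12 (adjusted p = 0.848). The other 7 Mediator lines gave -0.29 ± 0.13 (MED6-dTAG and MED10-dTAG) to 0.07 ± 0.13 (MED1-dTAG), none called, although MED10-dTAG was called without replicate B of dTAG7 (-0.44, adjusted p = 0.0266). The F test among Mediator lines was called on the spike-in scale (adjusted p = 0.00602, 46.2% of genes called) and not under TMM (adjusted p = 0.961, 12.4% of genes called). In the order of means every neighbouring pair of the 22 groups overlapped, and the highest mean, 72.9 CPM in MED31-dTAG cells with DMSO, was 2.05 times the lowest. The 3' end of MDM2 overlaps the gene of carboxypeptidase M on the opposite strand, which has no row in the table used here. Whether reads were counted by strand is not given in the sources used here.

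PPM1D, the phosphatase, had the lowest log2 fold change of the 5 genes in each comparison of CDK9 or BET loss. Its libraries held 6, 3 and 7 counts in CDK9-dTAG cells with dTAG7, against 31, 45 and 49 counts with DMSO. In wild-type cells they held 1, 4 and 6 counts with dBET6 and 6, 6 and 4 counts with THAL-SNS-032, against 56, 47 and 52 counts with DMSO. Scaled to spike-ins these were 1.23 ± 0.58 CPM in CDK9-dTAG cells with dTAG7, 0.648 ± 0.521 CPM with dBET6 and 1.06 ± 0.26 CPM with THAL-SNS-032. The DMSO groups stood at 17.8 ± 4.2 CPM in CDK9-dTAG cells and 17.7 ± 2.4 CPM in wild-type cells (SD, n = 3 each). The treated libraries lay far below those of DMSO, but 1 to 7 counts per library limit the precision of each fold.

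The log2 fold changes of PPM1D were -3.98 ± 0.42, -4.75 ± 0.42 and -4.05 ± 0.40 (edgeR, adjusted p at most 2.75e-13), leaving 6.33%, 3.73% and 6.03% of DMSO. The fall was called relative to other genes too, by -1.17 ± 0.43 (adjusted p = 0.0203), -1.24 ± 0.48 (adjusted p = 0.033) and -1.26 ± 0.42 (adjusted p = 0.0159). PPM1D is thus the member with a call in the same direction on both scales in these 3 comparisons. The difference between dBET6 and THAL-SNS-032 was not resolved (-0.69 ± 0.68, adjusted p = 0.394).

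In the Mediator lines PPM1D was not called on the spike-in scale, with values from -0.30 ± 0.27 in MED1-dTAG to 0.43 ± 0.28 in MED12-dTAG cells. MED14-dTAG cells had 15.8, 14.8 and 14.3 CPM with dTAG7 and 14.2, 16.2 and 13.9 CPM with DMSO, a log2 fold change of 0.02 ± 0.27 where the median gene was at -0.69. Relative to other genes that was a rise of 0.71 ± 0.23 (adjusted p = 0.0157). Single libraries stood apart from their replicates in this gene: replicate A of MED6-dTAG cells with dTAG7 had 5.51 CPM beside 23.6 and 17.0 CPM, and replicate B of MED12-dTAG cells with DMSO had 6.53 CPM beside 16.4 and 16.9 CPM. Without them the log2 fold changes were 0.21 in the MED6 line, against -0.24 with all libraries, and 0.10 in the MED12 line, against 0.43.

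On the spike-in scale the 5 genes were spread widely among all transcripts when CDK9 was removed through its tag. The share of tested genes with a lower log2 fold change was 99.4% for CDKN1A, 98.9% for MDM2, 88.6% for DDB2, 69.8% for AEN and 17.4% for PPM1D. With THAL-SNS-032 it was 99.4% for CDKN1A, 98.95% for MDM2, 91.3% for DDB2, 54.8% for AEN and 4.18% for PPM1D. With dBET6 it was 99% for CDKN1A, 98.9% for MDM2, 90.6% for DDB2, 31.9% for AEN and 12.8% for PPM1D. The order of the 5 genes by fold change was CDKN1A, MDM2, DDB2, AEN and PPM1D in all 3, and differences between genes were not tested. Set against wild-type cells, the dTAG7 effect in CDK9-dTAG cells was different for CDKN1A (0.74 ± 0.31, adjusted p = 0.0243), DDB2 (-2.07 ± 0.21), AEN (-2.66 ± 0.18) and PPM1D (-4.16 ± 0.51), in a contrast that called 94% of genes.

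CDK9 was removed by 2 routes, and none of the 5 genes was called as different between them. The effect in CDK9-dTAG cells minus that of THAL-SNS-032 in wild-type cells was 0.28 for CDKN1A (95% interval -0.33 to 0.89), 0.03 for DDB2 (-0.42 to 0.48) and 0.33 for AEN (-0.06 to 0.71). It was 0.05 for MDM2 (-0.32 to 0.43) and 0.07 for PPM1D (-1.38 to 1.51). The intervals do not show that the routes act alike. The compounds were given at 500 nM and 250 nM in different lines.

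**Figure D4:**
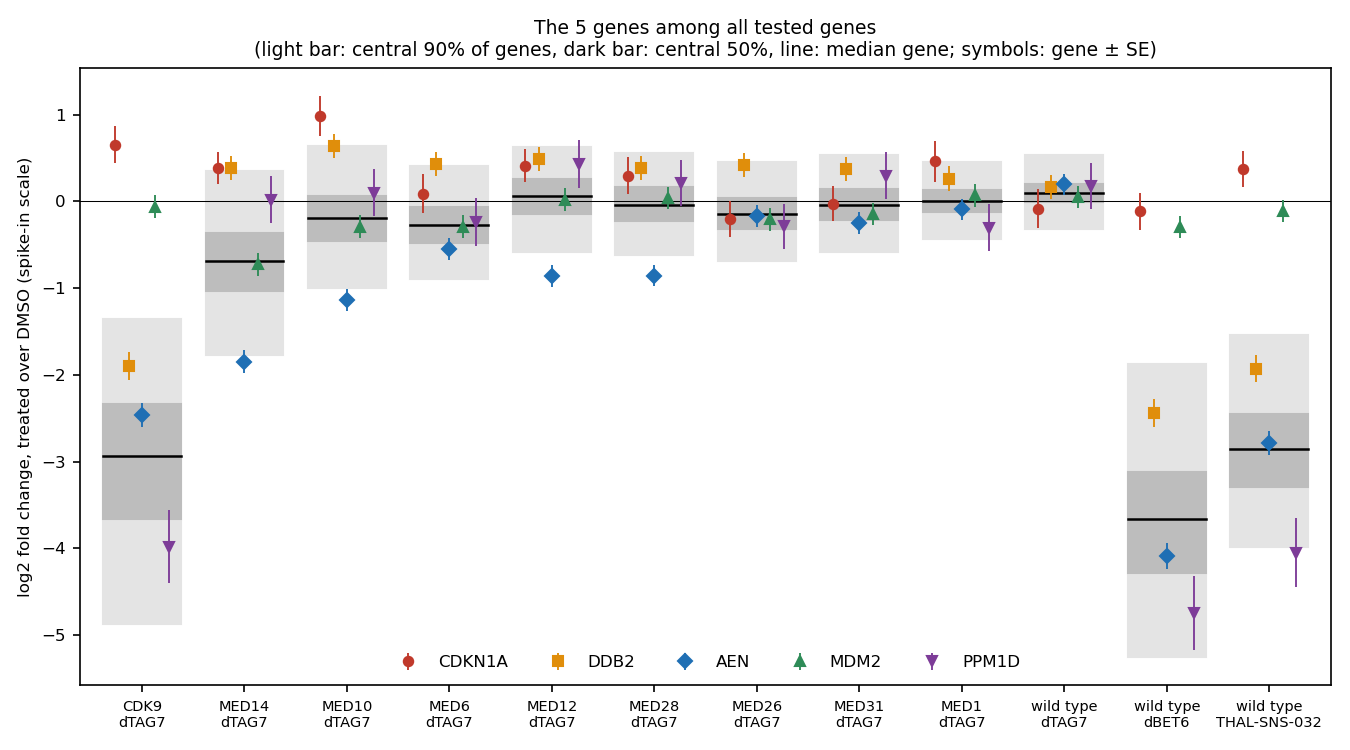
Log2 fold change of the 5 genes (symbols ± SE) on the spike-in scale over the distribution of all 12515 tested genes (light bar: central 90%, dark bar: central 50%, line: median) in 12 comparisons. In the 3 comparisons of CDK9 or BET loss CDKN1A and MDM2 lie above the light bar and PPM1D lies in its lower part or, with THAL-SNS-032, under it, while AEN lies under the light bar in the MED10, MED12, MED14 and MED28 lines.

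The wider list of known p53 targets held 34 tested genes, the 5 members among them, and is given here for the other 29. On the spike-in scale 0 of the 29 were called higher and 27 lower in CDK9-dTAG cells with dTAG7, where 0.224% of all genes were called higher and 95.3% lower. Their median log2 fold change was -2.13, beside -2.93 for all genes. With dBET6 1 was called higher and 27 lower (all genes 0.423% and 97.1%), with a median of -2.84 beside -3.67. With THAL-SNS-032 1 was called higher and 26 lower (all genes 0.256% and 96.2%), with a median of -2.13 beside -2.86. In MED14-dTAG cells 4 were called higher and 11 lower (all genes 1.7% and 63.3%), with a median of -0.33 beside -0.69. In MED10-dTAG cells 4 were called higher and 2 lower (all genes 2.71% and 19%), with a median of -0.0023 beside -0.19. The median of the list was above that of all genes in each of these 5 comparisons.

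Under TMM 15 of the 29 were called higher and 7 lower in CDK9-dTAG cells, where 21.1% of all genes were called higher and 27% lower. With dBET6 16 were called higher and 4 lower, beside 18.2% and 23.2% of all genes. With THAL-SNS-032 16 were called higher and 3 lower, beside 14.1% and 16%. In MED14-dTAG cells 11 were called higher and 4 lower, beside 13.4% and 16.6%, and in MED10-dTAG cells 10 and 1, beside 8.06% and 10%.

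The target with the highest median over the 12 comparisons under TMM, among those of at least 5 CPM, was TP53INP1, a stress protein that promotes p53 phosphorylation. It rose on the spike-in scale with dBET6 (1.44 ± 0.42), with THAL-SNS-032 (1.74 ± 0.41) and in the MED12 (1.499 ± 0.32) and MED14 lines (1.04 ± 0.31), and stood at 0.32 in CDK9-dTAG cells. ZMAT3, an RNA-binding target, rose by 2.48 ± 0.14, 2.599 ± 0.14 and 2.64 ± 0.14 under TMM in CDK9-dTAG cells, with dBET6 and with THAL-SNS-032, and the spike-in scale turned these to -0.34 ± 0.17, -0.97 ± 0.16 and -0.14 ± 0.16. In MED14-dTAG cells ZMAT3 rose by 0.48 ± 0.15 on the spike-in scale. SERTAD1, a regulator of CDK4, rose on the spike-in scale in the MED10 (1.54 ± 0.20), MED31 (1.00 ± 0.18), MED14 (0.99 ± 0.18), MED28 (0.85 ± 0.19) and MED26 lines (0.79 ± 0.20). It fell in CDK9-dTAG cells (-4.67 ± 0.34), with THAL-SNS-032 (-2.96 ± 0.29) and with dBET6 (-2.83 ± 0.27). The median gene in these comparisons stood at -2.93, -2.86 and -3.67. Under TMM SERTAD1 was called lower in CDK9-dTAG cells (-1.86 ± 0.37) and higher with dBET6 (0.735 ± 0.28). With THAL-SNS-032 it was not called under TMM (-0.165 ± 0.29). GADD45A, a damage-induced growth arrest gene, rose in MED10-dTAG cells (0.68 ± 0.18) and fell in CDK9-dTAG cells (-3.65 ± 0.28), with dBET6 (-3.78 ± 0.24) and with THAL-SNS-032 (-2.49 ± 0.21). Under TMM GADD45A was called lower in CDK9-dTAG cells (-0.83 ± 0.34). It was not called on that scale with dBET6 (-0.24 ± 0.31) or THAL-SNS-032 (0.31 ± 0.24). PIDD1, which activates caspase-2, had the third highest median (0.61 under TMM, 0.19 on the spike-in scale).

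Other targets fell in Mediator lines or only with CDK9 or BET loss. Fold changes here are on the spike-in scale unless TMM is named. TRIAP1, a mitochondrial survival factor, had the lowest median of the list under TMM (-0.50) and fell in the MED14 (-1.27 ± 0.19), MED12 (-0.69 ± 0.19) and MED10 lines (-0.69 ± 0.19). BBC3, the apoptosis inducer PUMA, fell in MED14-dTAG cells (-1.74 ± 0.23), and GDF15, a secreted stress cytokine, likewise (-2.04 ± 0.38). TNFRSF10A, a TRAIL receptor, fell in the MED14 (-1.299 ± 0.14), MED10 (-0.38 ± 0.13) and MED6 lines (-0.38 ± 0.13). Under TMM TNFRSF10A was called lower in the MED14 (-0.61 ± 0.14) and MED12 lines (-0.40 ± 0.12). It was not called under TMM in the MED10 (-0.17 ± 0.13) or MED6 line (-0.10 ± 0.12). TRIAP1, BBC3 and TNFRSF10A also fell in CDK9-dTAG cells and with dBET6 and THAL-SNS-032, by -4.45 to -2.75 on the log2 scale, and GDF15 fell in CDK9-dTAG cells (-1.52 ± 0.61) and with dBET6 (-2.42 ± 0.78). Among the comparisons of CDK9 or BET loss, TMM called BBC3 lower only in CDK9-dTAG cells (-1.27 ± 0.42) and TNFRSF10A only with dBET6 (-0.66 ± 0.18). The fall of BBC3 in MED14-dTAG cells was called under TMM too (-1.045 ± 0.22). GDF15 was called higher under TMM with THAL-SNS-032 (2.09 ± 0.65). It was not called under TMM in CDK9-dTAG cells (1.26 ± 0.65) or with dBET6 (0.97 ± 0.95). SESN2, a stress-induced inhibitor of growth signalling, rose in MED10-dTAG cells (0.53 ± 0.14) and fell in CDK9-dTAG cells (-4.76 ± 0.21), with dBET6 (-4.53 ± 0.19) and with THAL-SNS-032 (-3.44 ± 0.18). PLK3, a stress-responsive kinase, fell in CDK9-dTAG cells (-4.60 ± 0.40), with dBET6 (-4.69 ± 0.37) and with THAL-SNS-032 (-3.83 ± 0.35).

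**Figure D5:**
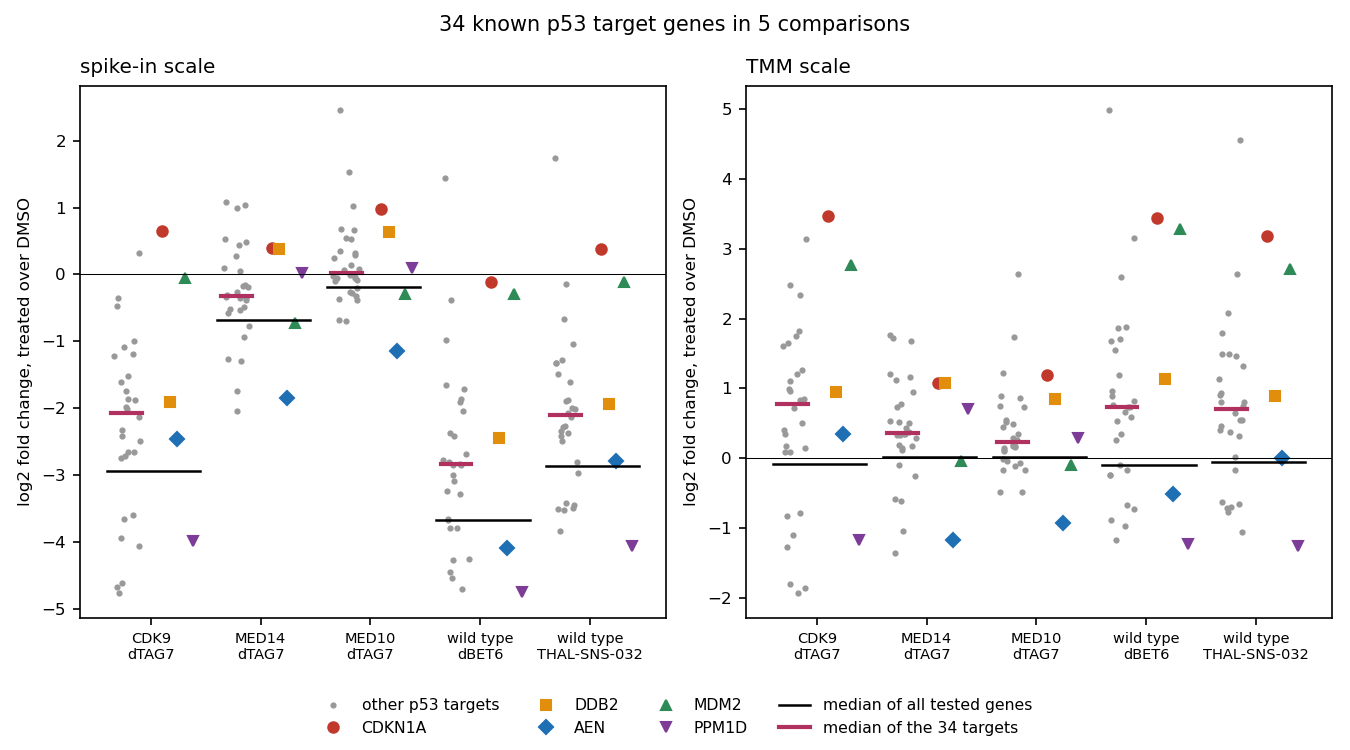
Log2 fold change, treated over DMSO, of 34 known p53 target genes in 5 comparisons on the spike-in scale (left) and the TMM scale (right), with the 5 genes of the text in colour, the other targets in grey, the median of the list in dark red and the median of all tested genes in black. The list median lies above that of all genes in each of the 5 comparisons, at -2.07 beside -2.93 in CDK9-dTAG cells on the spike-in scale.

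Of 27 tested genes that control p53, 0 were called higher on the spike-in scale in these 5 comparisons, in which 0.224% to 2.71% of all genes were. All 27 were called lower in CDK9-dTAG cells, with dBET6 and with THAL-SNS-032, beside 95.3%, 97.1% and 96.2% of all genes, so these counts are near the background. Their medians were -3.49, -3.98 and -3.01, beside -2.93, -3.67 and -2.86 for all genes. In MED14-dTAG cells 20 were called lower (all genes 63.3%), with a median of -0.52 beside -0.69, and in MED10-dTAG cells 7 (all genes 19%), with a median of -0.21 beside -0.19. Of 22 genes for partners of CDKN1A, cyclins and their kinases among them, 17 were called lower in MED14-dTAG cells (median -0.75), and of 23 genes for partners of DDB2 in repair also 17 (median -0.59), on the same scale and beside the same 63.3% and -0.69. Under TMM, where 13.4% of all genes were called higher and 16.6% lower, 5 and 7 of the CDKN1A partners and 5 and 2 of the DDB2 partners were.

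KAT5, an acetyltransferase of p53, fell in all 5 comparisons on both scales, by -2.53 ± 0.15 in MED14-dTAG and -1.19 ± 0.14 in MED10-dTAG cells on the spike-in scale. On that scale it also fell in the MED26 (-1.33 ± 0.14), MED6 (-1.32 ± 0.14) and MED31 lines (-0.90 ± 0.13). MDM4, the partner of MDM2, fell on the spike-in scale in the MED14 (-1.51 ± 0.13), MED6 (-0.55 ± 0.12), MED10 (-0.47 ± 0.12) and MED26 lines (-0.41 ± 0.12). Among these lines TMM called MDM4 lower only in MED14-dTAG cells (-0.828 ± 0.115). It was not called under TMM in the MED6 (-0.29 ± 0.10), MED10 (-0.26 ± 0.10) or MED26 lines (-0.27 ± 0.10). USP10, a deubiquitinase of p53, fell in the MED14 (-1.02 ± 0.14) and MED10 lines (-0.60 ± 0.13). RFFL, a ubiquitin ligase, fell with dBET6 (-6.54 ± 0.49), in CDK9-dTAG cells (-4.01 ± 0.40) and with THAL-SNS-032 (-3.32 ± 0.34). Under TMM RFFL was not called with THAL-SNS-032 (-0.51 ± 0.33).

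Under TMM 7 of the 27 regulators were called higher and 13 lower in CDK9-dTAG cells (all genes 21.1% and 27%), 6 and 11 with dBET6 (18.2% and 23.2%) and 4 and 6 with THAL-SNS-032 (14.1% and 16%). In MED14-dTAG cells 6 and 7 were called (13.4% and 16.6%) and in MED10-dTAG cells 3 and 4 (8.06% and 10%). SIRT1, a p53 deacetylase, rose under TMM in the MED10 (0.80 ± 0.21) and MED14 lines (0.63 ± 0.21) and fell in CDK9-dTAG cells (-1.83 ± 0.40) and with dBET6 (-0.98 ± 0.40). RPL5, a ribosomal protein that binds MDM2, rose in CDK9-dTAG cells (1.06 ± 0.07), with dBET6 (0.73 ± 0.07) and with THAL-SNS-032 (0.57 ± 0.07) and fell on the spike-in scale (-1.77 ± 0.09, -2.86 ± 0.09 and -2.23 ± 0.09). RPL11, which also binds MDM2, rose under TMM in CDK9-dTAG cells (0.85 ± 0.09), with dBET6 (0.70 ± 0.09) and with THAL-SNS-032 (0.35 ± 0.09). HUWE1, a ubiquitin ligase, rose under TMM in CDK9-dTAG cells (0.75 ± 0.11), with dBET6 (0.46 ± 0.11) and with THAL-SNS-032 (0.45 ± 0.11). RPL11 and HUWE1 fell in the same comparisons on the spike-in scale, by -3.14 to -1.96 on the log2 scale. CREBBP, an acetyltransferase, rose under TMM in the MED14 (0.48 ± 0.10), MED10 (0.45 ± 0.10) and MED28 lines (0.31 ± 0.09) and fell in CDK9-dTAG cells (-0.65 ± 0.13). On the spike-in scale CREBBP was not called in the MED14 (-0.21 ± 0.11), MED10 (0.24 ± 0.11) or MED28 line (0.27 ± 0.11). SIRT1 was not called on that scale in the MED10 (0.605 ± 0.25) or MED14 line (-0.06 ± 0.25). CHEK2 and ATR, damage kinases, had medians of -0.47 and -0.37 over the 12 comparisons under TMM, and the kinases ATM and HIPK2 of 0.17 and 0.16.

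The transcript most like CDKN1A over the 22 group means of log2 CPM (TMM scale) was ZMAT3 (Pearson r = 0.96), followed by RRM2B (0.96), the p53-induced subunit of ribonucleotide reductase, and ANKRD11 (0.95). On the spike-in scale the same pairs had r of 0.42, 0.13 and 0.05. DDB2 was most like ATAD2, SLC35E3 and PHYH (0.94 each to 2 decimals), and AEN most like GTPBP4 (0.94), IRAK1 (0.93) and ATAD3A (0.91), with 0.98 to 0.99 on the spike-in scale for all 6. MDM2 was most like ASCC3 (0.99), MTATP6P1 and MT-TE (0.98 each), with 0.57, 0.05 and 0.71 on the spike-in scale. PPM1D was most like CDCA5 (0.93), UFSP2 (0.92) and E2F8 (0.92). These values describe 9907 genes compared over groups that share the same libraries and depth. Between members, CDKN1A and MDM2 had r = 0.90 under TMM and -0.20 on the spike-in scale, and MDM2 and PPM1D -0.77 and 0.30.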

How the data were processed

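The 66 libraries came from QuantSeq, which reads the 3' end of mRNA, with 350 ng of RNA per library and single reads of 50 bp, per the labels. The raw counts per gene and spike-in (37 ERCC and 7 SIRV) were deposited by the authors. Tools named in the submitters' processing notes are bedtools 2.26.0, HTSeq 0.6.0 and STAR 2.5.2b, with build hg38. A second table deposited by the authors holds loess-normalized signal values and served in 1 alternative. Every deposited gene had at least 70 counts in all and was above 0 in at least 20 libraries. All columns were matched to samples by title.

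The test was the quasi-likelihood F test of edgeR 4.0.16 under R 4.3.3, over all 66 libraries and 22 group means with 44 residual degrees of freedom, spike-in totals as library sizes and the filterByExpr filter (12515 genes). The same fit with TMM factors held 12892 genes. p-values were adjusted by Benjamini-Hochberg over all genes within a comparison, and SE was taken as the absolute log2 fold change over the root of F. Confidence intervals are 95% t intervals. Alternatives were median-of-ratios scaling, no filter, a mean of at least 5 CPM, a replicate block by letter, separate fits of each comparison's 6 libraries, DESeq2 1.42.0, limma 3.58.1 on the loess-normalized signal (log2 with 1 added), and leaving out each library.

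The members and gene lists were chosen with earlier results of these data known. All members are named in every comparison. From the lists of p53 targets and regulators the 3 lowest and 3 highest by median under TMM, and up to 2 rising and 2 falling in 5 comparisons, were taken for naming where their mean was at least 5 CPM. A result that this rule also picked is not reported here. Likeness used log2 CPM with a prior count of 2. Replicate letters did not pair samples (correlations of deviations between treated and DMSO libraries of the same letter from -0.22 to 0.07). Scripts were tested on simulated data. Figures were made with Python and matplotlib.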

Additional observations from a re-analysis of the deposited data

Results flagged for a closer look

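Each value here is a difference between groups under the same contrast that passed the edgeR quasi-likelihood test on the spike-in scale (Benjamini-Hochberg adjusted p under 0.05). The dTAG7 effect in a tagged line minus that in wild-type cells was called in 11 cases. Of all genes these contrasts called 94% in CDK9-dTAG, 57.7% in MED14-dTAG, 14.7% in MED10-dTAG and 11.1% in MED6-dTAG cells. The shares were 1.65% in MED12-dTAG and 1.88% in MED28-dTAG cells. In CDK9-dTAG cells it was 0.74 for CDKN1A, -2.07 for DDB2, -2.66 for AEN and -4.16 for PPM1D. For AEN it was -0.75 in MED6-dTAG, -1.34 in MED10-dTAG, -1.06 in MED12-dTAG, -2.05 in MED14-dTAG and -1.05 in MED28-dTAG cells. For CDKN1A it was 1.07 in MED10-dTAG cells, and for MDM2 -0.78 in MED14-dTAG cells. The median gene of that MED14 contrast stood at -0.79, so MDM2 moved with the bulk of genes there. The median gene of the CDK9 contrast stood at -3.04.

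The dTAG7 effect also differed among the 8 Mediator lines for AEN (F = 21.5), MDM2 (F = 3.82) and CDKN1A (F = 2.72). This F test called 46.2% of all genes, so the number of members called is near the background. Under TMM, where 12.4% of genes were called, the F test was called for CDKN1A and AEN, and for DDB2 (F = 3.43), and not for MDM2 (F = 0.339).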

How the results depend on the processing

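The scale decides most of what changes. Under TMM the number of comparisons called higher was 5 for CDKN1A, 8 for DDB2, 1 for AEN, 3 for MDM2 and 1 for PPM1D, and the number called lower was 0 for DDB2, 5 for AEN, 0 for MDM2 and 3 for PPM1D. Median-of-ratios factors gave 5, 9, 1, 3 and 1 called higher, with 0 called lower for DDB2, 5 for AEN and 0 for MDM2. Against these the spike-in scale gave 2, 4, 0, 0 and 0 called higher and 0, 3, 8, 2 and 3 called lower. With the 6 libraries of a comparison alone DDB2 was called higher in 2 comparisons, and with limma on loess-normalized values MDM2 was called lower in 1. DESeq2, both other filters and the replicate block left all 60 calls of the members as they were. With the replicate block the counts were 2 higher for CDKN1A, 4 higher and 3 lower for DDB2, 8 lower for AEN, 2 lower for MDM2 and 3 lower for PPM1D.

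Leaving out each of the 66 libraries, CDKN1A was called higher in 2 to 3 comparisons and lower in 0 to 0, DDB2 higher in 3 to 5 and lower in 3 to 3, AEN higher in 0 to 0 and lower in 8 to 8, MDM2 higher in 0 to 0 and lower in 1 to 3, and PPM1D higher in 0 to 0 and lower in 3 to 3.

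Under TMM the sign turned in 4 member effects that were called on neither scale. It also turned in 9 that were called on the spike-in scale, under TMM or on both, which are given here (median-of-ratios in parentheses). In CDK9-dTAG cells these were DDB2 0.95 (1.06), AEN 0.35 (0.46) and MDM2 2.77 (2.88). With dBET6 they were CDKN1A 3.45 (3.59), DDB2 1.14 (1.28) and MDM2 3.29 (3.43). With THAL-SNS-032 they were DDB2 0.89 (0.96), AEN 0.0074 (0.077) and MDM2 2.71 (2.78). The CDK9-dTAG minus wild-type difference turned for DDB2 to 0.88 (0.99), for AEN to 0.24 (0.36) and for MDM2 to 2.81 (2.93). That of MED14-dTAG cells for MDM2 turned with median-of-ratios to 0.041. dBET6 against THAL-SNS-032 turned to 0.26 (0.34) for CDKN1A, 0.25 (0.32) for DDB2 and 0.58 (0.65) for MDM2. Both scalings set the bulk of genes to no change, and with dBET6 the median gene, at -3.67 on the spike-in scale, was at -0.10 under TMM. Low counts limit PPM1D with CDK9 or BET loss, where 1 to 7 counts were seen per library.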
